A study of Homo sapiens with 15 samples.

Results

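ZR-75-1 is an estrogen receptor-positive human breast cancer line of luminal type, and dexamethasone (DEX) is a synthetic glucocorticoid. The arrays described here are those of ZR-75-1 cells given 10 nM DEX for 6 h and those of cells given vehicle for 6 h, chosen by their titles, with 3 arrays each. They are 6 of the 15 arrays of a series that also tested MPA, PROG and DHT at 10 nM for 6 h, again with 3 arrays each, read here as medroxyprogesterone acetate, progesterone and dihydrotestosterone. All cells, vehicle cells included, grew in RPMI-1640 medium with fetal bovine serum that was not said to be stripped of steroids, so the groups share whatever hormones that serum carried. Vehicle was ethanol, the vehicle titles also say untreated, and the sources used here do not give the solvent of DEX, so DEX and any solvent difference cannot be told apart against vehicle. The series uses a single line, and no label says whether each array had a culture of its own. The p-values therefore cover the spread between these arrays and no more, and that spread may be technical.

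Glucocorticoids act through the glucocorticoid receptor, the product of NR3C1. On binding hormone the receptor leaves a chaperone complex, enters the nucleus and binds DNA at palindromic response elements, often far from promoters, and it raises some genes directly while lowering others, in part by tethering to factors such as NF-kB and AP-1. In breast epithelium glucocorticoids are known for roles in differentiation and cell survival, and the progesterone and androgen receptors read closely similar DNA elements. NR3C1 and TSC22D3, a classical glucocorticoid target, have no probe set with a name here and were not analysed here.

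Of the 34878 probe sets on the arrays, the 14841 with 1 gene symbol were tested, and they stand for 14361 genes. Levels are log2 values as deposited, and a change is a log2 difference of DEX minus vehicle ± the standard error of limma's fit (n = 3 arrays each). A gene is called, and said to have risen or fallen, where the limma adjusted p is under 0.05. The median of all deposited values, 3.70, serves as a mark for dim probe sets, and levels under it are hard to tell from background. Of the luminal markers 12 of 12 measured were above 3.70, with summed levels of 115.27 to 116.38 on DEX arrays and 115.15 to 115.63 on vehicle arrays. Of the 14841 named probe sets 9517 had a mean over all arrays above that mark, so passing it does not by itself identify a cell type. In both groups 6 of 7 blood and endothelial markers, 2 of 4 fibroblast markers and 3 of 7 basal markers were under 3.70, the basal keratins KRT5 and KRT14 among them, and 0 of these 18 were called. The basal marker VIM was under 3.70 by its DEX mean but not by its vehicle mean. Array pairs correlated across all probe sets at 0.99755 to 0.99766 within DEX, 0.99733 to 0.99746 within vehicle and 0.99706 to 0.9973 between them. As in any bulk RNA, fewer cells of a type and less RNA per cell cannot be told apart.

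DEX raised many more genes than it lowered. Of the 14841 probe sets 164 were called (1.11%), of which 142 were higher (0.957%) and 22 lower (0.148%). In each of the 164 the 3 DEX arrays lay on 1 side of the 3 vehicle arrays. The share of such probe sets among all 14841 was not counted, so this adds no support beyond the calls. Most changes were small, with a median size of 0.34 among the calls, and 21 reached 1.5-fold, 20 of them higher and 1 lower, the microRNA gene MIR1913. The call of MIR1913 was lost in at least 1 of the 6 fits with a DEX or vehicle array left out. The median change of all genes was 0.01. Protein-coding genes made up 133 of the rises and 19 of the falls, and the others included 3 microRNA genes higher (MIR21, MIR29C and MIRLET7F2) and MIR1913 lower, and 2 long non-coding RNAs higher (LINC00473 and LIN28B-AS1) and TSPEAR-AS2 lower. With small RNAs and pseudogenes passed over, the 15 largest rises kept their calls with each of the 6 arrays left out in turn. Over all calls 60 did so, 58 higher and 2 lower, and the number of calls was 78 without DEX 3, 87 without vehicle 1, 95 without DEX 2, 99 without vehicle 3, 104 without vehicle 2 and 123 without DEX 1. Fitting only the 6 arrays, without the spread of the other 9, left 44 calls, 41 higher and 3 lower.

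**Figure D1:**
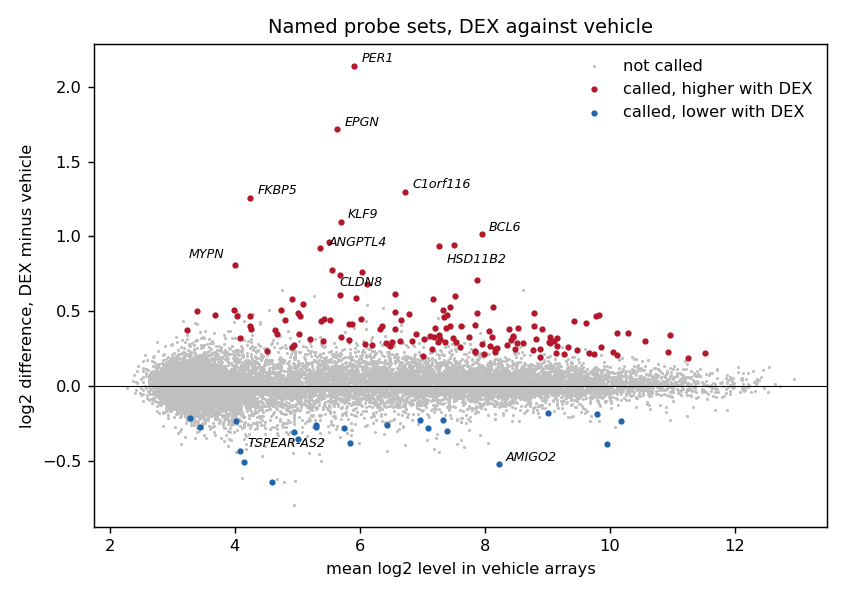
Change with DEX of every named probe set. Each point is 1 probe set, with the mean log2 level of the 3 vehicle arrays across and the log2 difference of DEX minus vehicle up; the 142 called higher are red, the 22 called lower blue and the rest grey, and PER1 and EPGN stand above the others.

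PER1, a core repressor of the circadian clock and a direct glucocorticoid target in many tissues, changed most. Its level was 7.90, 8.16 and 8.09 on the 3 DEX arrays, against 5.69, 6.00 and 6.04 on the 3 vehicle arrays. The gap between the groups was several times the spread within either. The rise was 4.41-fold (2.14 ± 0.10, adjusted p = 7.54e-08). CRY2, the cryptochrome partner of PER proteins, had 6.32, 6.27 and 6.27 with DEX, against 5.85, 5.87 and 5.91 with vehicle, and rose by 0.41 ± 0.041 (adjusted p = 1.07e-04). PER2 rose by 0.29 ± 0.064 (adjusted p = 0.0420), a call lost on leaving out any array of the 6 (then adjusted p = 0.0875 to 0.165). Of 14 measured clock genes these 3 rose and 0 fell, with a list median of 0.06. The activators CLOCK (adjusted p = 0.987) and BMAL1 (-0.03 ± 0.041) were not called, nor were CRY1 (0.05 ± 0.045), PER3 (-0.17 ± 0.073) or the output factor DBP (-0.09 ± 0.073).

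EPGN, which encodes epigen, a membrane-anchored ligand of the epidermal growth factor (EGF) receptor, was next. It had 7.25, 7.38 and 7.43 on DEX arrays, against 5.90, 5.35 and 5.66 on vehicle arrays. The lowest DEX array was well clear of the highest vehicle array, and the vehicle arrays spread more widely than the DEX arrays. The rise was 3.29-fold (1.72 ± 0.11, adjusted p = 1.05e-06). None of the other 13 measured genes of the EGF family list was called, and the list median was -0.01. The ligand genes EGF (0.04 ± 0.050) and BTC (-0.23 ± 0.14) were above 3.70 and not called, whereas EREG and NRG2 lay under it in both groups. The receptors EGFR (0.14 ± 0.049), ERBB3 (-0.05 ± 0.046) and ERBB4 (-0.04 ± 0.060) were not called, and neither were the shedding proteases ADAM10 and ADAM17.

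The promoter windows of 2 risen genes are shown because they hold the palindromic core that hormone receptors of this class read, searched as ACANNNTGT on both strands, or its hexamer arm, AGAACA or TGTTCT. Each window runs from 250 bases before to 50 bases after the RefSeq start (GRCh38.p14), 5′ to 3′ on the gene's strand, with matches in capitals. The EPGN window is chr4:74308220-74308519, plus strand, and its capitals join a core and an overlapping TGTTCT, which begin 238 and 232 bases before the start. The IRS2 window is chr13:109786534-109786833, minus strand, with a core 46 bases before the start.
EPGN: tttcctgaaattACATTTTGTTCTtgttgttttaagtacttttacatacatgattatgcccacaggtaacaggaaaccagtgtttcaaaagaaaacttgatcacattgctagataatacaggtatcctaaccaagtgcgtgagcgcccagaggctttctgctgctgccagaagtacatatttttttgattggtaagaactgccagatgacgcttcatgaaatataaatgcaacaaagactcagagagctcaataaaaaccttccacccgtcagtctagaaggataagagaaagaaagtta
IRS2: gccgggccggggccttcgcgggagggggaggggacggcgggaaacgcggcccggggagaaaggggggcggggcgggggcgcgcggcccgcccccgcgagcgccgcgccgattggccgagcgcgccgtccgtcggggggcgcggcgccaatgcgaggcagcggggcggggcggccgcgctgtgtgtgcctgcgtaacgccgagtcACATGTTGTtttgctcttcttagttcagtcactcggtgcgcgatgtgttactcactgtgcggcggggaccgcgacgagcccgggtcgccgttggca
Such matches are common. The hexamer was in 14.8% of 35116 promoter windows and in 10.1% of the 148 windows of genes called higher, which matched 104 of the 142 genes. The core was in 5.37% of all windows and in 4.73% of those of risen genes. The latter were 7 windows, those of EPGN, IRS2, MYPN, GNMT, TNS1, TTC39C and TSPAN14. The PER1 window (chr17:8152355-8152654, minus strand) held neither, and nor did that of ANGPTL4, another of the largest rises. A match is a string of letters, not a measured binding site, and no binding was measured here.

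FKBP5, the co-chaperone that lowers hormone binding of steroid receptors, had 5.50, 5.51 and 5.50 with DEX, against 4.48, 4.43 and 3.83 with vehicle. Its DEX arrays were almost equal, and vehicle 3 lay well below the other vehicle arrays. It rose 2.39-fold (1.26 ± 0.13, adjusted p = 1.81e-04). HSD11B2, the enzyme that turns cortisol into inactive cortisone, had 8.17, 8.20 and 8.25 with DEX, against 7.26, 7.38 and 7.18 with vehicle, and rose 1.91-fold (0.93 ± 0.065, adjusted p = 3.16e-06). It was the 1 called gene of 8 measured in the list of glucocorticoid-metabolising and steroid-converting enzymes. Of 17 receptors, chaperones and co-regulators FKBP5 alone was called, with a list median of -0.02. The receptor genes PGR (-0.20 ± 0.056, adjusted p = 0.164) and ESR1 (-0.20 ± 0.065, adjusted p = 0.248) were not called, but PGR was called lower without DEX 1 (then adjusted p = 0.0463). For PGR the DEX arrays had 8.22, 8.06 and 8.02 and the vehicle arrays 8.34, 8.33 and 8.22, so that DEX 1 equalled the lowest vehicle array.

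Among glucocorticoid-responsive transcription factors 5 of 18 measured rose and 0 fell, and the list median was 0.18, against 0.01 over all genes. KLF9, a Krüppel-like repressor that works beside the clock and glucocorticoid signalling, had 6.90, 6.69 and 6.79 with DEX, against 5.74, 5.65 and 5.70 with vehicle (1.10 ± 0.092, adjusted p = 2.39e-05). BCL6, a zinc finger repressor best known in germinal centre B cells, had 8.99, 8.96 and 8.95 with DEX, against 7.92, 7.96 and 7.98 with vehicle (1.01 ± 0.053, adjusted p = 1.37e-07). The spread within either group of BCL6 was small beside that change. Neither gene's groups overlapped, which held for all 164 calls. TFCP2L1, a grainyhead-like factor of epithelia, rose by 0.44 ± 0.064 (adjusted p = 0.00239, or 0.0705 with the 6 arrays fitted alone). LEF1, a DNA-binding partner of beta-catenin in Wnt signalling, was not in that list and had 6.57, 6.32 and 6.37 with DEX, against 5.68, 5.55 and 5.80 with vehicle (0.74 ± 0.074, adjusted p = 1.07e-04). ZBTB16, a strong glucocorticoid target elsewhere, and KLF15 lay under 3.70 in both groups, so no change can be read for them. FOXO1 (0.01 ± 0.051) and STAT5B (0.16 ± 0.075) were above that mark and not called.

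**Figure D2:**
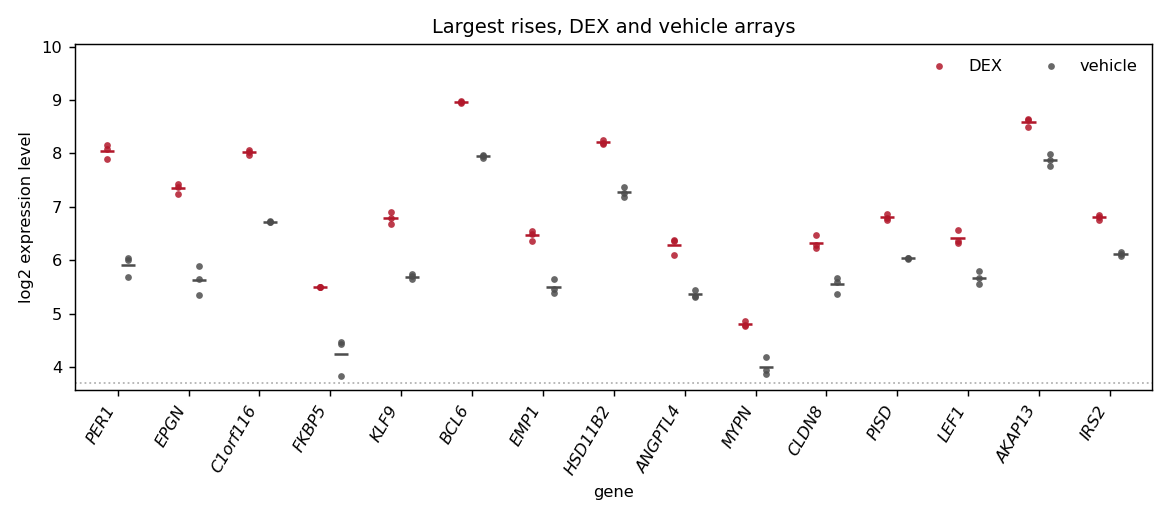
The 15 largest called rises, small RNAs and pseudogenes passed over. Points are log2 levels of single arrays, DEX in red and left of vehicle in grey for each gene. Bars are means of 3 arrays, and the dotted line is 3.70. That all DEX arrays lie above all vehicle arrays was a condition for choosing these genes.

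Signalling regulators rose in 6 of 21 measured cases and fell in 0, with a list median of 0.09. IRS2, an adaptor of the insulin and IGF-1 receptors, had 6.81, 6.85 and 6.75 with DEX, against 6.16, 6.12 and 6.08 with vehicle (0.68 ± 0.071, adjusted p = 1.49e-04). DDIT4 (REDD1), an inhibitor of mTORC1, had 7.66, 7.76 and 7.82 with DEX, against 7.22, 7.11 and 7.17 with vehicle (0.58 ± 0.054, adjusted p = 6.34e-05). IL6R, the interleukin-6 receptor alpha chain, had 7.92, 7.95 and 8.04 with DEX, against 7.46, 7.42 and 7.45 with vehicle (0.53 ± 0.061, adjusted p = 3.50e-04). The DEX and vehicle arrays of these genes were apart by several times the spread within either group. DUSP1, the phosphatase that switches off MAP kinases, had 7.87, 7.80 and 7.85 with DEX, against 7.31, 7.34 and 7.34 with vehicle (0.51 ± 0.059, adjusted p = 3.50e-04). RHOB, a small GTPase, rose by 0.29 ± 0.049 (adjusted p = 0.00851), a call lost on leaving out DEX 3 (then adjusted p = 0.0519) or with the 6 arrays fitted alone (then adjusted p = 0.0966). AKAP13, an anchor of protein kinase A that also activates RhoA, was not in that list and rose by 0.71 ± 0.068 (adjusted p = 6.84e-05). SGK1, a kinase induced by glucocorticoids in many tissues, was at 2.95, 2.93 and 3.04 with DEX, against 2.85, 3.09 and 3.08 with vehicle. These levels are under 3.70, so no change can be read. TXNIP (0.05 ± 0.038) and ANXA1, the anti-inflammatory annexin (0.10 ± 0.054), were well above it and not called.

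Feedback on MAP kinase signalling gave 3 rises among 18 measured genes, DUSP1, SPRY4 and ERRFI1, with a list median of 0.05, and 1 to 2 with an array left out (1 without DEX 1 or vehicle 3). SPRY4, a Sprouty inhibitor of receptor tyrosine kinases, had 6.49, 6.55 and 6.36 with DEX, against 6.20, 6.01 and 5.84 with vehicle (0.45 ± 0.091, adjusted p = 0.0279), and the call was lost on leaving out DEX 1, DEX 2, vehicle 2 or vehicle 3 (then adjusted p = 0.0902 to 0.132). ERRFI1, an inhibitor of the EGF receptor, rose by 0.26 ± 0.053 (adjusted p = 0.0283), a call lost on leaving out DEX 1, DEX 3, vehicle 1 or vehicle 3 (then adjusted p = 0.0559 to 0.133). In the insulin and PI3K list 3 of 23 rose, IRS2, DDIT4 and IGFBP5, an IGF-binding protein (0.19 ± 0.039, adjusted p = 0.0344), whose call ended on leaving out any array of the 6 (then adjusted p = 0.0703 to 0.131). The list median there was 0.03.

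Immediate early genes rose in 5 of 21 measured cases and fell in 0, with a list median of 0.15. FOSL2, an AP-1 subunit, had 7.77, 7.86 and 7.87 with DEX, against 7.40, 7.44 and 7.47 with vehicle (0.40 ± 0.046, adjusted p = 3.50e-04). EGR3, a zinc finger factor close to 3.70, had 4.35, 4.48 and 4.70 with DEX, against 4.14, 3.95 and 4.03 with vehicle (0.47 ± 0.082, adjusted p = 0.0111), and the call was lost on leaving out vehicle 2 (then adjusted p = 0.0548). The DEX arrays of EGR3 spread more widely than its vehicle arrays. JUNB, another AP-1 subunit (0.24 ± 0.048, adjusted p = 0.0250), lost its call on leaving out DEX 1, DEX 2, DEX 3, vehicle 1 or vehicle 3 (then adjusted p = 0.0516 to 0.112). KLF10 (0.24 ± 0.051, adjusted p = 0.0335) lost its call on leaving out DEX 1, DEX 2, DEX 3, vehicle 1 or vehicle 2 (then adjusted p = 0.0768 to 0.152), and MYC (0.23 ± 0.049, adjusted p = 0.0396) on leaving out DEX 2, DEX 3, vehicle 1, vehicle 2 or vehicle 3 (then adjusted p = 0.0813 to 0.177). FOS (-0.10 ± 0.079), FOSL1 (0.00 ± 0.084), JUND (0.00 ± 0.079) and EGR1 (0.15 ± 0.054) were not called. With 1 array left out the list held 2 to 4 called members.

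Metabolic and secreted targets rose in 2 of 20 measured cases, with a list median of 0.07. ANGPTL4, a secreted inhibitor of lipoprotein lipase, had 6.10, 6.39 and 6.36 with DEX, against 5.33, 5.44 and 5.32 with vehicle, and rose 1.89-fold (0.92 ± 0.082, adjusted p = 4.01e-05). DEX 1 was the lowest of its DEX arrays and still above all vehicle arrays. GLUL, glutamine synthetase, rose by 0.32 ± 0.047 (adjusted p = 0.00235, or 0.0534 with the 6 arrays fitted alone). Outside the list PISD, the mitochondrial phosphatidylserine decarboxylase, had 6.75, 6.87 and 6.79 with DEX, against 6.05, 6.03 and 6.04 with vehicle (0.76 ± 0.058, adjusted p = 8.05e-06). The liver genes TAT and PCK1, classical glucocorticoid targets there, lay under 3.70 in both groups. MT2A, a metal-binding metallothionein, rose by 0.30 ± 0.046 (adjusted p = 0.00394, or 0.0824 with the 6 arrays fitted alone) and was the 1 called of 11 measured in its list, whose median was 0.12. MT1X (0.20 ± 0.059, adjusted p = 0.170) and MT1F (0.16 ± 0.057, adjusted p = 0.299), both far above 3.70, were not called.

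C1orf116, whose product is also called specifically androgen-regulated gene protein, had 8.02, 7.97 and 8.07 with DEX, against 6.74, 6.71 and 6.72 with vehicle, and rose 2.46-fold (1.30 ± 0.056, adjusted p = 2.67e-08). Within both groups its arrays were nearly equal. EMP1, a tetraspan membrane protein of epithelia, had 6.37, 6.49 and 6.55 with DEX, against 5.47, 5.66 and 5.40 with vehicle (0.96 ± 0.089, adjusted p = 5.80e-05). CLDN8, a tight junction claudin, had 6.29, 6.23 and 6.47 with DEX, against 5.60, 5.68 and 5.38 with vehicle (0.78 ± 0.085, adjusted p = 2.12e-04). CLDN8 was the 1 called of 13 measured genes for epithelial salt and water transport and junctions. MYPN, myopalladin, a protein known from muscle sarcomeres, was low in both groups and had 4.87, 4.78 and 4.79 with DEX, against 4.20, 3.95 and 3.87 with vehicle (0.81 ± 0.10, adjusted p = 6.35e-04). KRT19, a luminal keratin, rose by 0.22 ± 0.045 (adjusted p = 0.0305), a call lost on leaving out DEX 2, DEX 3, vehicle 1 or vehicle 2 (then adjusted p = 0.0769 to 0.144), and it was the 1 called of the 12 luminal markers.

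Among small RNAs, MIR21 and MIR29C are named after their values were seen, because they were the microRNA genes with the largest rises. Arrays of this kind read the precursor or its host transcript, not the mature strand, and MIR21 overlaps transcripts of its neighbour VMP1, which such a probe set may also read. MIR21, a microRNA gene often high in breast tumours, had 8.45, 8.38 and 8.51 with DEX, against 7.57, 7.49 and 7.45 with vehicle (0.94 ± 0.084, adjusted p = 4.01e-05), and kept its call with each array left out. MIR29C had 8.04, 8.19 and 8.14 with DEX, against 7.68, 7.42 and 7.46 with vehicle (0.60 ± 0.10, adjusted p = 0.0107), a call lost on leaving out DEX 2, DEX 3, vehicle 2 or vehicle 3 (then adjusted p = 0.0513 to 0.0544). For each gene 1 mature strand is shown with its seed, bases 2 to 8, in capitals, from RefSeq (GRCh38.p14). They lie at chr17:59841273-59841294 on the plus strand and chr1:207801865-207801886 on the minus strand. MIR29C also gives hsa-miR-29c-5p, which is not shown. The seeds of the 2 mature strands shown differ.
hsa-miR-21-5p: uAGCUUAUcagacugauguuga
hsa-miR-29c-3p: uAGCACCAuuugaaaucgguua

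Falls were fewer. With small RNAs and pseudogenes passed over, none of the 10 largest reached the size of the 15 largest rises, and 8 of those 10 were no longer called in at least 1 fit with an array removed. AMIGO2, a cell adhesion protein, had 7.60, 7.63 and 7.87 with DEX, against 8.24, 8.31 and 8.13 with vehicle (-0.53 ± 0.10, adjusted p = 0.0224), with DEX 3 nearer to vehicle than the other DEX arrays, and its call ended on leaving out DEX 1, DEX 2, vehicle 1 or vehicle 2 (then adjusted p = 0.0787 to 0.106). TSPEAR-AS2, an antisense RNA, had 3.68, 3.55 and 3.71 with DEX, against 3.99, 4.15 and 4.10 with vehicle (adjusted p = 4.05e-04), and since its DEX mean lies under 3.70 no size is given. ARID3B, an AT-rich DNA-binding factor, had 5.50, 5.45 and 5.46 with DEX, against 5.73, 5.76 and 5.76 with vehicle (-0.28 ± 0.044, adjusted p = 0.00544). TSPEAR-AS2 and ARID3B kept their calls with each array left out, but with the 6 arrays fitted alone the adjusted p was 0.0579 and 0.0600. ANKRD12 (-0.39 ± 0.069, adjusted p = 0.0122) lost its call on leaving out DEX 2, DEX 3 or vehicle 1 (then adjusted p = 0.0537 to 0.0623), and SH3RF2 (-0.28 ± 0.050, adjusted p = 0.0128) on leaving out DEX 3, vehicle 1 or vehicle 3 (then adjusted p = 0.0523 to 0.0783).

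SYT1, a calcium sensor of vesicle release, fell (-0.31 ± 0.059, adjusted p = 0.0219), a call lost on leaving out DEX 2, DEX 3, vehicle 1 or vehicle 3 (then adjusted p = 0.0563 to 0.107). KYNU, kynureninase of tryptophan breakdown, fell (-0.30 ± 0.061, adjusted p = 0.0282), a call lost on leaving out DEX 2, DEX 3, vehicle 1, vehicle 2 or vehicle 3 (then adjusted p = 0.0638 to 0.136). The calls of the homeobox gene HOXC8 (-0.38 ± 0.082, adjusted p = 0.0411), the adhesion gene NRCAM (-0.36 ± 0.075, adjusted p = 0.0349) and NPR3, the natriuretic peptide clearance receptor (-0.28 ± 0.062, adjusted p = 0.0478), were each lost, HOXC8 on leaving out any array of the 6 (then adjusted p = 0.106 to 0.133), NRCAM on leaving out any array of the 6 (then adjusted p = 0.0665 to 0.143) and NPR3 on leaving out any array of the 6 (then adjusted p = 0.0895 to 0.172). HOXC8 had 5.45, 5.47 and 5.45 with DEX, against 5.84, 5.82 and 5.85 with vehicle, so its groups were far apart for their own spread, and HOXC8 and NRCAM stayed called with the 6 arrays fitted alone. Of 18 measured genes of the BCL2 family and apoptosis, BCL2 fell (-0.18 ± 0.040, adjusted p = 0.0402) and BCL2L1 rose (0.21 ± 0.043, adjusted p = 0.0259), both inhibitors of apoptosis. Both calls were lost, BCL2 on leaving out any array of the 6 (then adjusted p = 0.0518 to 0.148) and BCL2L1 on leaving out any array of the 6 (then adjusted p = 0.0548 to 0.113).

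**Figure D3:**
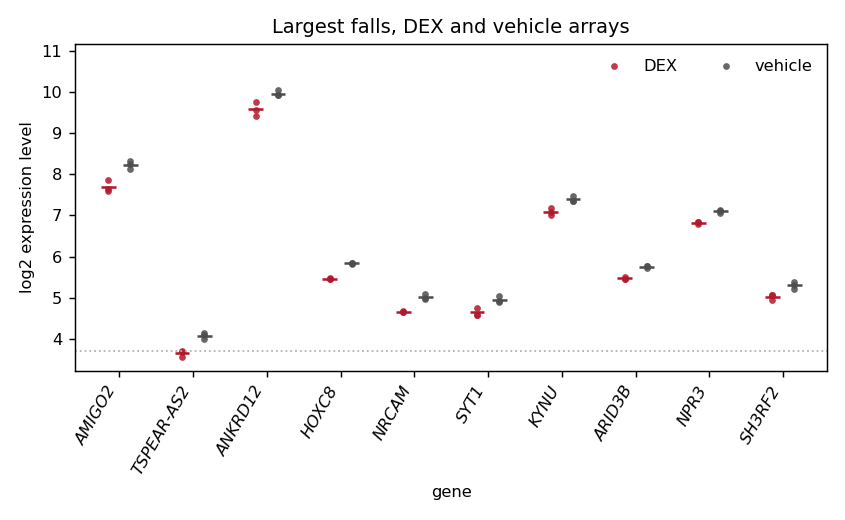
The 10 largest called falls, small RNAs and pseudogenes passed over. Points are log2 levels of single arrays, DEX in red and left of vehicle in grey for each gene, bars are means of 3 arrays, and the dotted line is 3.70; TSPEAR-AS2 reaches that line with DEX.

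Lists named for other hormones were read next, and they share members with the glucocorticoid lists. Progestin-induced genes rose in 10 of 28 measured cases and fell in 0, with a list median of 0.20, the highest of all 30 lists. The 10 were FKBP5, KLF9, BCL6, EMP1, HSD11B2, DDIT4, DUSP1, S100P, THBS1 and BCL2L1. S100P, a calcium-binding protein, rose by 0.30 ± 0.058 (adjusted p = 0.0215), a call lost on leaving out DEX 2, DEX 3, vehicle 1 or vehicle 3 (then adjusted p = 0.0517 to 0.106), and THBS1, a matricellular protein, by 0.25 ± 0.052 (adjusted p = 0.0326), a call lost on leaving out DEX 2, DEX 3, vehicle 1 or vehicle 2 (then adjusted p = 0.0848 to 0.149). Androgen-induced genes rose in 5 of 22 cases, C1orf116, FKBP5, CLDN8, KDM4B and EAF2, with a list median of 0.10. KDM4B, a histone demethylase (0.50 ± 0.11, adjusted p = 0.0401), lost its call on leaving out DEX 1, DEX 2, DEX 3, vehicle 1 or vehicle 3 (then adjusted p = 0.0868 to 0.153), and EAF2, an elongation cofactor, rose by 0.38 ± 0.062 (adjusted p = 0.00605, or 0.111 with the 6 arrays fitted alone). PIP, a secreted protein of apocrine cells, had means of 8.28 ± 0.098 with DEX and 7.98 ± 0.072 with vehicle (SD, n = 3 each), and the difference of 0.30 ± 0.067 missed the threshold (adjusted p = 0.0529), though it passed with a mean-variance trend (adjusted p = 0.0202) or with dim probe sets left out (adjusted p = 0.0329). Of 23 estrogen-induced genes GREB1 rose (0.44 ± 0.047, adjusted p = 1.81e-04) and MYB fell (-0.23 ± 0.046, adjusted p = 0.0250), the second call ending on leaving out DEX 1, DEX 3, vehicle 1 or vehicle 3 (then adjusted p = 0.0659 to 0.113).

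No member was called among 20 NF-kB and inflammatory genes, with a list median of -0.02 and 9 members under 3.70 in both groups. RELA (0.16 ± 0.046), NFKB1 (-0.06 ± 0.046) and REL (-0.17 ± 0.043, adjusted p = 0.0846) were well above that level. The chemokine genes CXCL8 and CCL2, cyclooxygenase gene PTGS2 and adhesion gene ICAM1 were under it, so no fall can be read for them. No call was made among 16 interferon-induced, 29 fatty acid, 16 sterol synthesis, 25 G1-S, 22 mitotic, 14 unfolded protein response, 10 heat shock or 11 housekeeping genes, and their medians lay between -0.02 and 0.08. ANGPTL4 was the 1 of 15 hypoxia genes called. Over all 431 members of the lists 35 rose (8.12%) and 2 fell, and 68.9% had a positive change with a median of 0.04, against 0.989% risen and 54.5% positive over all 14361 genes. Without DEX 3 the called members were 23 in all. The lists were chosen with earlier results of these data known, so these shares describe them and test nothing.

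**Figure D4:**
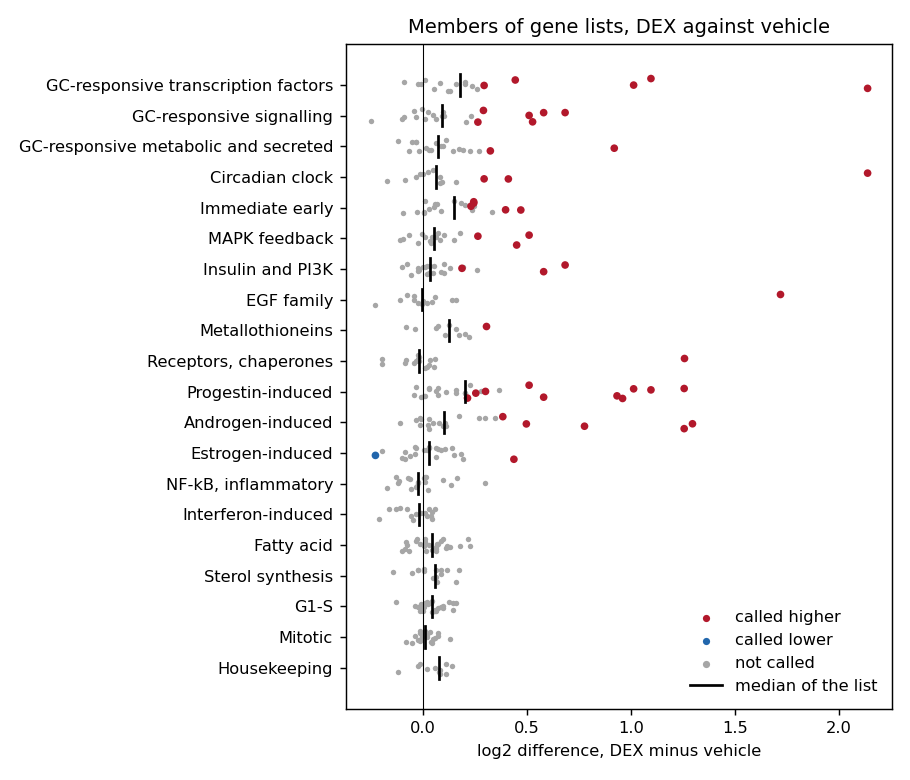
Change of each measured list member with DEX. Points are genes by log2 difference of DEX minus vehicle, red where called higher, blue where called lower and grey where not called, and black bars are list medians; the progestin-induced list has 10 red points and the inflammatory list 0.

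The other steroids were given at the same dose and time, so DEX was also set against each of them in 3 comparisons. Progesterone lacks the fluorine and the hydroxyl groups of DEX, MPA is progesterone with an added methyl and acetoxy group, and DHT lacks the side chain that the other steroids carry. The DEX arrays are the same in all of these comparisons and in that with vehicle, so they are not independent. DEX differed from MPA at 602 probe sets (4.06%), 233 above (1.57%) and 369 below (2.49%). From PROG it differed at 211 (1.42%), 58 above (0.391%) and 153 below (1.03%), and from DHT at 97 (0.654%), 59 above (0.398%) and 38 below (0.256%). Differences of at least 1.5-fold numbered 92 against MPA, 84 of them below, 46 against PROG, 40 of them below, and 15 against DHT, 8 of them below. Adjusted over the 3 comparisons together, the calls were 469 against MPA, 230 against PROG and 162 against DHT. Single arrays moved some of these counts. Calls against DHT were 62 without DHT 1 and 64 without DHT 2, those above DHT were 35 without DEX 3, and without DHT 3 there were 67 calls below DHT and 35 differences of 1.5-fold. Calls above MPA were 144 without MPA 1 and 130 without DEX 3, and calls above PROG 32 to 38 without any 1 of the DEX and PROG arrays.

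The 15 largest rises of DEX over vehicle were split among the steroids. Against MPA 2 of them were above (EPGN and ANGPTL4) and 8 below, against PROG 4 above and 5 below, and against DHT 10 above and 2 below (C1orf116 and CLDN8). Of these calls, those of KLF9 and LEF1 against MPA, of C1orf116, FKBP5 and BCL6 against PROG and of KLF9 and AKAP13 against DHT were lost in at least 1 fit with an array removed (then adjusted p = 0.0502 to 0.163). That of FKBP5 against PROG was lost on leaving out any DEX or PROG array (then adjusted p = 0.117 to 0.126). That of BCL6 was lost on leaving out any of them but PROG 2 (then adjusted p = 0.0622 to 0.105). PER1 had 7.90, 8.16 and 8.09 with DEX, against 7.80, 7.73 and 7.85 with MPA, 7.30, 7.56 and 7.38 with PROG and 6.78, 7.04 and 7.08 with DHT. DEX was above PROG by 0.64 ± 0.10 (adjusted p = 0.00486) and above DHT by 1.08 ± 0.10 (adjusted p = 2.05e-04). The difference from MPA, 0.26 ± 0.10, was not called (adjusted p = 0.246), with a 95% interval of 0.03 to 0.48. BCL6 (-0.07 ± 0.053, interval -0.18 to 0.04), DUSP1 (0.02 ± 0.059, interval -0.10 to 0.15) and IL6R (-0.04 ± 0.061, interval -0.18 to 0.09) were likewise not called against MPA. BCL6 was above DHT by 0.48 ± 0.053 (adjusted p = 3.80e-04) and DUSP1 by 0.51 ± 0.059 (adjusted p = 5.15e-04).

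For FKBP5 DEX was below MPA by a log2 difference of -0.90 ± 0.13 (adjusted p = 9.10e-04), and against DHT it was not called (0.32 ± 0.13, interval 0.04 to 0.61). HSD11B2 had 8.17, 8.20 and 8.25 with DEX, against 9.04, 8.95 and 8.93 with MPA, 8.58, 8.72 and 8.47 with PROG and 7.87, 7.92 and 7.96 with DHT. It was below MPA (-0.77 ± 0.065, adjusted p = 4.58e-06) and PROG (-0.38 ± 0.065, adjusted p = 0.00578, or 0.0778 with the compared arrays fitted alone). EMP1 was below MPA (-0.95 ± 0.089, adjusted p = 1.23e-05) and PROG (-0.89 ± 0.089, adjusted p = 5.91e-05) and above DHT (0.60 ± 0.089, adjusted p = 0.00376, or 0.0592 with the compared arrays alone). TFCP2L1 ran the same way, at -0.81 ± 0.064 against MPA, -0.47 ± 0.064 against PROG and 0.57 ± 0.064 against DHT, each called. By list, DEX was below MPA for 18 of 28 progestin-induced genes, 10 of 22 androgen-induced genes, 7 of 18 glucocorticoid-responsive transcription factors and 7 of 21 signalling regulators, and above it for 0 in each, where 2.49% of all probe sets were below MPA and 1.57% above. Against DHT it was above for 4 of those 18 transcription factors and 4 of those 21 regulators and below for 0. It was above DHT for 5 and below for 1 of the progestin-induced genes, and above for 0 and below for 5 of the androgen-induced genes, where 0.398% of all probe sets were above DHT and 0.256% below.

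For several genes DEX was far below MPA and PROG and not called against vehicle. ZBTB7C, a zinc finger gene, had 4.79, 4.93 and 4.81 with DEX, against 6.81, 7.03 and 7.19 with MPA and 6.64, 7.10 and 6.62 with PROG, a difference of -2.17 ± 0.12 from MPA (adjusted p = 7.61e-08) and -1.94 ± 0.12 from PROG (adjusted p = 7.58e-07). Its difference from vehicle was 0.12 ± 0.12 (adjusted p = 0.800). SGPP2, a sphingosine phosphate phosphatase, was below MPA by -1.86 ± 0.11 and PROG by -1.20 ± 0.11, GREB1L by -1.62 ± 0.087 and -1.15 ± 0.087, and the netrin receptor gene UNC5B below MPA by -1.65 ± 0.080, each as a log2 difference and each called. ACOT6, an acyl-CoA thioesterase gene, was below PROG by -1.51 ± 0.12 (adjusted p = 9.81e-06), and so was P3H2, a collagen hydroxylase gene (adjusted p = 2.81e-04). P3H2 had 3.56, 3.32 and 3.32 with DEX, against 4.46, 4.73 and 4.50 with PROG, and since its DEX arrays lay under 3.70 no size is given. OLR1, a scavenger receptor gene, was below DHT (-0.76 ± 0.078, adjusted p = 2.92e-04) and was not called against MPA (0.24 ± 0.078). AMIGO2 was above MPA (0.70 ± 0.10, adjusted p = 7.83e-04), as were HEY2, a Notch-responsive repressor (0.62 ± 0.089, adjusted p = 6.86e-04), and POU2AF3 (0.68 ± 0.11, adjusted p = 0.00228). ZNF675 was above MPA too (0.71 ± 0.15, adjusted p = 0.0155), a call lost on leaving out DEX 2, DEX 3, MPA 2 or MPA 3 (then adjusted p = 0.0524 to 0.0643). HEY2 with DEX was below DHT (-0.67 ± 0.089, adjusted p = 0.00142).

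A rule added after the values were seen took the genes that DEX held above all 3 other steroids, each by a call, and 18 did so (0.121%). EPGN had 7.25, 7.38 and 7.43 with DEX, against 6.45, 6.57 and 6.55 with MPA, 6.38, 6.28 and 6.42 with PROG and 6.49, 6.38 and 6.24 with DHT. All DEX arrays were above all of these, by 0.83 ± 0.11, 0.99 ± 0.11 and 0.98 ± 0.11 on average, with adjusted p of 2.82e-04, 1.50e-04 and 3.42e-04. ANGPTL4 was above by 0.44 ± 0.082, 0.76 ± 0.082 and 0.79 ± 0.082 in the same order, and its call against MPA was lost with the compared arrays fitted alone (then adjusted p = 0.0734). SRARP, named as a steroid receptor-associated protein, had 6.24, 6.35 and 6.29 with DEX, against 5.72, 5.68 and 5.96 with MPA, 5.73, 5.63 and 5.68 with PROG, 5.50, 5.52 and 5.67 with DHT and 5.64, 5.68 and 5.74 with vehicle. The 4 other groups of SRARP lay close together apart from MPA 3, and DEX was above vehicle by 0.61 ± 0.070 (adjusted p = 3.34e-04). PNPLA3, a lipid droplet acylhydrolase, was above by 0.48 ± 0.077, 0.60 ± 0.077 and 0.67 ± 0.077, and above vehicle by 0.49 ± 0.077 (adjusted p = 0.00534, or 0.0567 with the 6 arrays fitted alone). Among these 18, LINC00473, a long non-coding RNA, had a vehicle mean under 3.70.

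Of the same 18 genes, 12 were also called higher than vehicle, and the other 6 were not called against it. TPCN1, an endolysosomal cation channel, was above vehicle by 0.33 ± 0.043 (adjusted p = 9.78e-04), and SECISBP2L, a SECIS-binding protein of selenoprotein synthesis, by 0.42 ± 0.046 (adjusted p = 1.98e-04). TNS1, a tensin of focal adhesions, was above it by 0.35 ± 0.049 (adjusted p = 0.00195, or 0.0759 with the 6 arrays fitted alone). The call of the developmental factor SOX9 against vehicle (0.30 ± 0.053, adjusted p = 0.0108) ended on leaving out DEX 3 or vehicle 1 (then adjusted p = 0.0510 to 0.0563), that of IRX6 on leaving out DEX 2, DEX 3, vehicle 1, vehicle 2 or vehicle 3 (then adjusted p = 0.0883 to 0.133) and that of CREG2 on leaving out DEX 1, DEX 3, vehicle 1 or vehicle 3 (then adjusted p = 0.0848 to 0.105). FAM234B and SOX9 lost their calls against vehicle with the 6 arrays fitted alone (then adjusted p = 0.0689 and 0.0815). CCNG2, an atypical cyclin of cell cycle arrest, was above MPA (0.33 ± 0.040), PROG (0.35 ± 0.040) and DHT (0.26 ± 0.040, with adjusted p = 0.0948 when the compared arrays were fitted alone), but 0.17 ± 0.040 against vehicle was not called (adjusted p = 0.0564, or 0.0258 with dim probe sets left out). FAM234B, FOXI1, IRX6, PEX6, POU2F3 and RNF144B differed from the other steroids by 0.18 to 0.44, and for CREG2, TOMM20L and LINC00473 at least 1 of the other steroids had a mean under 3.70. Against PROG, FAM234B, FOXI1, POU2F3 and RNF144B lost their calls on leaving out any DEX or PROG array (then adjusted p = 0.0583 to 0.198). IRX6, SOX9 and CREG2 lost theirs against PROG on leaving out any PROG array or DEX 3, among others. Against MPA, FAM234B lost its call on leaving out any DEX array, MPA 1 or MPA 3 (then adjusted p = 0.0656 to 0.140). With 1 array left out the rule gave 10 to 17 genes, the 10 without PROG 3 and 11 without any 1 of PROG 1, PROG 2 and DEX 3.

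DEX held 14 genes below all 3 other steroids by the same rule (0.0943%), and 7 of these were nonetheless called higher than vehicle. With the 6 arrays fitted alone ANKRD22, EAF2, ARHGEF26, PRR15 and PWWP3B lost that call (then adjusted p = 0.0809 to 0.115). PRR15 also lost it on leaving out DEX 2, DEX 3, vehicle 1 or vehicle 2 (then adjusted p = 0.0618 to 0.0881). PWWP3B lost it on leaving out any array but vehicle 1 (then adjusted p = 0.0570 to 0.0903). C1orf116 had 8.02, 7.97 and 8.07 with DEX, against 9.02, 9.02 and 9.17 with MPA, 8.36, 8.37 and 8.22 with PROG and 10.20, 10.27 and 10.14 with DHT. DEX was between vehicle and the others, -1.05 ± 0.056 from MPA, -0.30 ± 0.056 from PROG and -2.18 ± 0.056 from DHT. The call against PROG ended on leaving out DEX 1, DEX 2, PROG 1 or PROG 2 (then adjusted p = 0.0502 to 0.0726), and with the compared arrays fitted alone (then adjusted p = 0.0896). CLDN8 differed by -1.24 ± 0.085, -0.57 ± 0.085 and -1.25 ± 0.085 in that order. ANKRD22, an ankyrin repeat gene, differed by -1.21 ± 0.060, -1.13 ± 0.060 and -0.46 ± 0.060, and EAF2 by -1.08 ± 0.062, -0.67 ± 0.062 and -0.57 ± 0.062. AQP3, the glycerol and water channel, had 6.12, 6.32 and 6.43 with DEX, against 6.04, 5.67 and 6.01 with vehicle, and was not called there (0.38 ± 0.11, adjusted p = 0.162). RANBP3L, a RAN-binding protein, differed by -2.00 ± 0.097, -0.58 ± 0.097 and -0.89 ± 0.097, with a vehicle mean under 3.70 and an adjusted p against PROG of 0.0532 with the compared arrays fitted alone. The other 8 were ADD3, ARHGEF26, CPEB4, HPGD, MTMR9, PRAG1, PRR15 and PWWP3B. The rule gave 7 genes without DEX 2 and 9 without any 1 of DEX 1, PROG 1, PROG 2 and DHT 1.

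**Figure D5:**
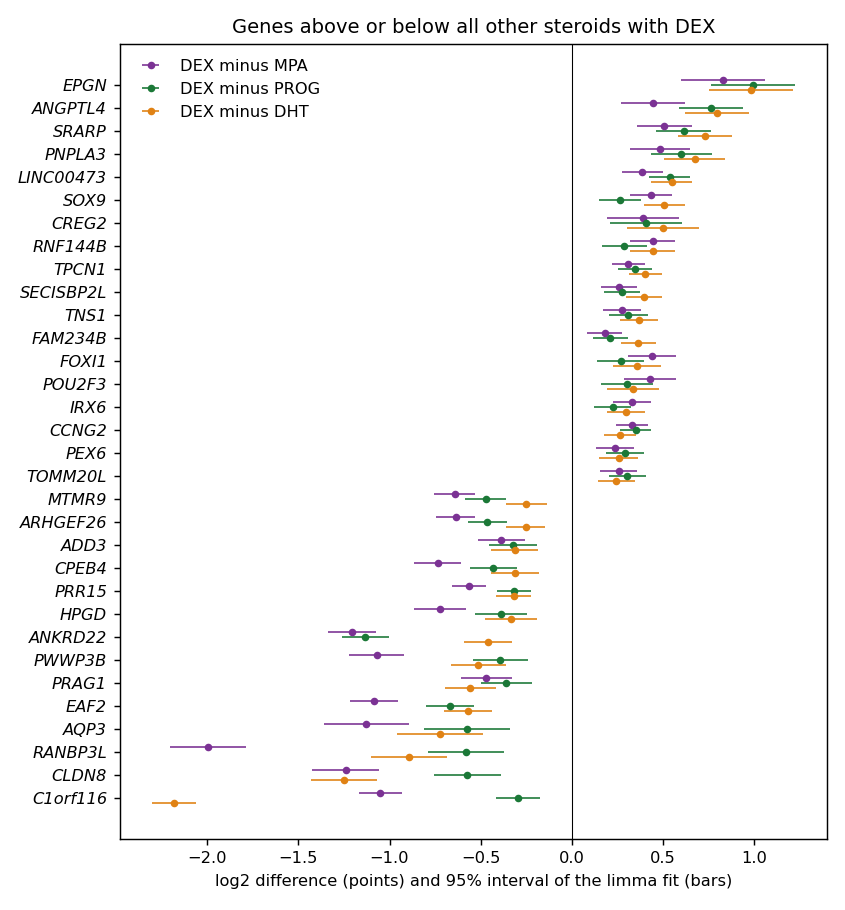
Genes that DEX held above (18) or below (14) all 3 other steroids. Points are log2 differences of DEX minus MPA, PROG or DHT and bars are 95% intervals of limma's fit; EPGN lies farthest right against all 3, and C1orf116 farthest left against DHT.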

How the data were processed

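Total RNA was amplified and labelled for Affymetrix whole-transcript arrays, per the labels' protocols. The deposited values are log2 expression levels with 1 column per array, and per the submitters' processing notes Partek and RMA were used. The sources used here do not give versions, settings or the genome build. Since RMA brings arrays to a like distribution, it would take out a shift shared by most genes, and it can compress changes of dim probe sets. The platform annotation gives 14841 probe sets 1 symbol, 0 several, and leaves 20037 unnamed here. All 14841 matched a RefSeq gene table. For the 405 genes with more than 1 probe set, that with the highest mean was read.

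Values were used as deposited. limma 3.58.1 in R 4.3.3 (lmFit, eBayes) fitted a mean for each of 5 groups (15 arrays, 10 residual and 3.81 prior degrees of freedom), checked on simulated data. The 4 contrasts, DEX minus vehicle, MPA, PROG and DHT, were 2-sided with Benjamini-Hochberg adjustment within each at 0.05. Every adjusted p and 95% interval comes from these fits, and array number limits the precision. Named genes are the 15 largest called rises and 10 largest called falls without overlap, small RNAs and pseudogenes passed over, up to 4 called members of each list, the 5 largest differences from each steroid in each direction, and PGR, ESR1, FKBP5, ZBTB16, PER1, SGK1, KLF9, DUSP1, BCL6, ANGPTL4, EPGN, HSD11B2, PIP and C1orf116. Uncalled list members, MIR21, MIR29C, MYC, S100P, THBS1, RHOB and the genes of the last section were chosen for their roles or after their values were seen. The members and lists were chosen with earlier results of these data known. Alternatives were the fit of the compared arrays alone, the replicate number as a block, a mean-variance trend, removal of dim probe sets, quantile normalization, all probe sets, and each array left out. Same-numbered arrays deviated from their group means with correlations of -0.0396 to 0.0602 over 9517 probe sets, so the numbers were not taken as pairs.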

Additional observations from a re-analysis of the deposited data

Results flagged for a closer look

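Probe sets without a gene name took no part in the comparisons above, and a signal appeared there as well. With the same limma fit over all deposited probe sets, 89 of the 20037 unnamed ones were called between DEX and vehicle (0.444%), 77 higher and 12 lower. The largest, probe set 16983373, averaged 8.17 with DEX and 6.22 with vehicle, a log2 difference of 1.94 ± 0.090 (adjusted p = 8.68e-08), which is of the size seen for PER1. The next, probe set 16901161, averaged 7.40 with DEX and 6.41 with vehicle (0.99 ± 0.070, adjusted p = 7.05e-06). The lowest was probe set 16860386, with a difference of -0.57. Their genes are not named here.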

How the results depend on the processing

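Among the genes followed singly, no called difference turned its direction under the alternatives run. Some uncalled differences from vehicle changed sign between fits with an array left out, such as that of POU2AF3 (-0.11 to 0.06). Fitting only the arrays compared left 44 calls against vehicle (41 higher, 3 lower), 285 against MPA (70 above, 215 below), 122 against PROG (23 above, 99 below) and 39 against DHT (23 above, 16 below), with 8 genes above and 6 below all 3 steroids and 17 called list members. With each array left out in turn the calls against vehicle were 78 to 123 (73 to 110 higher, 3 to 14 lower), against MPA 422 to 539 (130 to 206 above), above PROG 32 to 38, and against DHT 62 to 135 (33 to 68 above, 26 to 67 below, 15 to 35 of at least 1.5-fold). Genes above all 3 steroids were 10 to 17, those below 7 to 15, and called list members 23 to 29. The replicate number as a block gave 14 falls against vehicle and 147 calls in all; the arrays share a number and no stated pairing. All deposited probe sets gave 9 falls, 38 calls above PROG and 11 genes above all 3 steroids. A mean-variance trend gave 166 calls against DHT (103 above, 63 below) and 22 genes below all 3 steroids. Leaving out dim probe sets gave 89 calls above DHT. Adjusting over the 3 steroid comparisons together, chosen after seeing the data, gave 162 calls against DHT (103 above, 59 below). Other counts over all probe sets stayed within 1.5 times under these settings and quantile normalization. Counts in single lists, often of 1 to 3 members, moved by more in several lists, among them the immediate early, MAP kinase feedback, metallothionein, apoptosis and luminal marker lists. The cause of these shifts was not tested, except that fewer arrays enter the fits with arrays left out. With 3 arrays a group, a change of small size or of a probe set near 3.70 may be missed.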

Other observations

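Some risen genes outside the lists are given here, chosen after their values were seen among those that kept their calls with each array left out. ZNF652, a zinc finger repressor, had 10.23, 10.32 and 10.21 with DEX, against 9.82, 9.70 and 9.83 with vehicle (0.47 ± 0.056, adjusted p = 4.05e-04). MAOB, a mitochondrial amine oxidase, rose by 0.46 ± 0.076 (adjusted p = 0.00776), and UGDH, which makes UDP-glucuronate, by 0.34 ± 0.047 (adjusted p = 0.00167, or 0.0689 with the 6 arrays fitted alone). EHF, an epithelial ETS factor, rose by 0.35 ± 0.040 (adjusted p = 2.88e-04), and NRP1, a co-receptor of semaphorins and VEGF, by 0.38 ± 0.049 (adjusted p = 8.78e-04, or 0.0809 with them alone). TMEM63C, a membrane protein, had 8.69, 8.64 and 8.65 with DEX, against 8.07, 8.16 and 8.17 with vehicle (0.53 ± 0.050, adjusted p = 6.84e-05). The arrays of the groups did not overlap for any of these 6 genes. This held for all 164 calls, its share over all probe sets was not counted, and it adds no support beyond the calls.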
